A study of Zea mays with 72 samples.

Results

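The 6 leaf 4 libraries collected 2 h after ZmPep3 was given were set against the 6 leaf 4 control libraries, 12 of the 72 libraries of a maize (Zea mays) series, and every gene with values in them was kept. The libraries were picked by their labels alone. The series measured RNA in detached leaves of B73 seedlings, in 12 groups of 6 biological replicates that differ in leaf and treatment. B73 is the inbred line of the maize reference genome. ZmPep3 is a plant elicitor peptide of maize, and the other agent of the series was (Z)-3-hexenyl acetate (HAC), a volatile of damaged leaves. Leaf 4 is the mature leaf of seedlings at the V4 stage, and leaves 5 and 6 are younger.

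In the ZmPep3 group the peptide was added to the water in which the cut leaf stood, to about 1 µM, and the leaf was harvested after 2 h. The control group of leaf 4 was handled in the same way without ZmPep3 or HAC, and the labels give neither a harvest time nor a mock addition for it. All of these leaves were cut from the seedling, recut under water, left to recover for at least 2 h and then held in clean airflow for at least 2 h. The sheath of leaf 4 was removed as well. Both groups were therefore wounded, detached B73 leaves taken whole, and each value is an average over all cells of the blade. The same 6 controls also serve as the reference of the HAC treatments of leaf 4. The question was how a mature leaf responds to a dissolved defence peptide.

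Plant elicitor peptides are cut from precursor proteins in damaged cells and bind leucine-rich repeat receptor kinases, which signal with SERK co-receptors, as worked out mostly in Arabidopsis. In maize leaves ZmPep3 is known to raise jasmonate and ethylene levels, volatile terpenes and indole, benzoxazinoids and proteinase inhibitors. Jasmonate is made from linolenic acid by 13-lipoxygenase, allene oxide synthase, allene oxide cyclase and oxophytodienoate reductase. JAZ proteins of the TIFY family repress jasmonate-responsive genes and are themselves induced by the hormone.

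Library totals were close, at 29466770 to 30003542 counts after ZmPep3 and 29285369 to 29963999 counts in controls, and 25558 genes were tested over the 72 libraries. Of these, 10788 passed an adjusted p of 0.05 in edgeR's quasi-likelihood test (42.2%), 5180 of them higher after ZmPep3 (20.3%) and 5608 lower (21.9%). This balance moved with the processing, to 4895 higher and 4550 lower when only the 2 groups were fitted and to 4608 higher and 6583 lower with no filter on low counts. A change of 2-fold or more was passed by 2378 genes in the higher direction (9.3%) and by 1904 in the lower direction (7.45%). At 4-fold or more there were 1036 higher and 498 lower genes. The libraries of the 2 groups did not overlap for 5213 of all tested genes (20.4%). Among genes with at least 5 CPM (counts scaled to library size) on the higher side and no overlap between the libraries, 544 were at least 4-fold higher and 69 at least 4-fold lower. The median log2 fold change of all genes was -0.05. Genes below 1 CPM on average in both groups numbered 4747, and 883 of the calls came from them.

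The first principal component of the 12 libraries held 48.8% of the variance and separated the groups, with scores of 47.3 to 88.7 after ZmPep3 and -110 to -42.5 in controls. Control library 4 stood apart on the second component (8.23% of the variance) at -85.1, where the other controls lay between 12.6 and 39.0. Without that library 9998 genes passed the test and 4022 passed it at 2-fold or more. ZmPep3 library 2 was at the upper end of the first component, and 4160 genes passed at 2-fold or more without it. Controls 2 and 6 lay nearest to the ZmPep3 group on the first component. Of the 10 lipoxygenase genes that rose, 7 had their highest control value in control 2, as did 10 of the 17 TIFY genes that rose. Control 4 had the lowest control value for 9 of those 17.

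**Figure D1:**
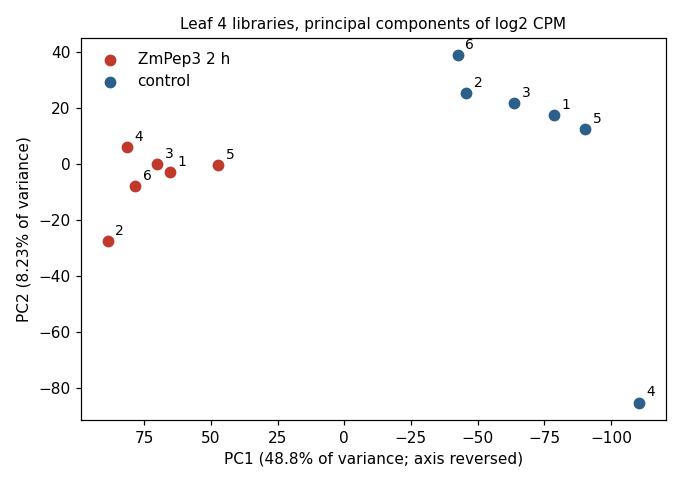
Scores of the 6 ZmPep3 (red, left) and 6 control (blue) libraries of leaf 4 on the first 2 principal components of log2 CPM, with replicate numbers beside the points and the first axis reversed. The groups separate along the first component, and control library 4 lies at -85.1 on the second.

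Marker genes fitted a leaf blade and do not single out a mature one. The 4 mesophyll markers of the C4 cycle summed to 10408 to 14930 CPM after ZmPep3 and 9831 to 15146 CPM in controls, and the 4 bundle sheath markers to 1566 to 5492 CPM after ZmPep3 and 3249.9 to 6911 CPM in controls. The bundle sheath medians in controls were 4739 CPM in leaf 4, 16459 CPM in leaf 5 and 21078 CPM in leaf 6. Of the 6 meristem markers, wus1, HB122, gnarley1 and knox3 were at 0 in all 12 libraries. The list summed to at most 0.247 CPM after ZmPep3 and 0.146 CPM in controls. Its only tested gene, knox8, passed as higher (log2 fold change 3.71) at no more than 0.216 CPM. The ligule and sheath list, led by lg2, summed to 0.983 to 3.11 CPM after ZmPep3 and 2.27 to 4.10 CPM in controls. Epidermis and wax markers summed to 268 to 336 CPM after ZmPep3 and 347 to 467 CPM in controls, and did not overlap. Of the 12 tested epidermis markers 5 fell (41.7%, against 21.9% of all tested genes) and none rose. Among the falls were gl4a (-1.62 ± 0.24), ocl5 (-0.47 ± 0.12) and EREB55 (-2.60 ± 0.36). The part of epidermal cells in the falls described below was not tested. In whole leaves, fewer cells of a type and less RNA per cell cannot be told apart.

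Among named genes that reached 5 CPM on their higher side, with no overlap between the libraries, the largest rise was that of TIFY29 (NCBI Gene 100284541), a TIFY family member, whose lowest, median and highest levels were 5.24, 9.12 and 16.8 CPM after ZmPep3, against 0, 0.157 and 0.361 CPM in controls. The groups were far apart, and controls held almost no transcript (log2 fold change 6.05 ± 0.58, adjusted p = 1.53e-13, ± SE here and throughout). pdc1 (542376), a pyruvate decarboxylase of ethanolic fermentation, was at 24.8, 35.8 and 68.9 CPM after ZmPep3, against 0, 1.09 and 2.14 CPM in controls (log2 fold change 5.21 ± 0.63, adjusted p = 4.01e-10). aox3 (542676), an alternative oxidase that bypasses part of the mitochondrial respiratory chain, was at 64, 143 and 353 CPM after ZmPep3, against 4.33, 10.9 and 20.5 CPM in controls. Its log2 fold change was 3.84 ± 0.48 (adjusted p = 1.14e-09). CKX4 (100272805), a cytokinin oxidase, which breaks cytokinins down, was 15-fold higher, and GNAT32 (100284421), named for an acetyltransferase family, reached 4.47 to 8.1 CPM after ZmPep3 against 0.0277 to 1.14 CPM in controls.

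On the other side, TIP4-4 (542647), an aquaporin of the vacuolar membrane, was all but absent after ZmPep3, at 0, 0.147 and 0.419 CPM, against 3.19, 4.93 and 10.3 CPM in controls (log2 fold change -4.89 ± 0.51, adjusted p = 1.75e-12). zmCL2-1 (541929), for which the reference table gives no product, was at 6.62, 12.7 and 23.2 CPM after ZmPep3 and 64.7, 76.6 and 95.5 CPM in controls (log2 fold change -2.53 ± 0.22, adjusted p = 2.97e-15). The other largest falls by the same criteria were sbp25 (-2.44 ± 0.22) and NF-YA13 (-2.05 ± 0.29), members of the SBP and NF-Y transcription factor families, HB128 (-1.98 ± 0.18), a homeobox gene, PYL7 (-2.10 ± 0.37), of the abscisic acid receptor family, HAK11 (-2.06 ± 0.33), of a potassium transporter family, and mde1 (-2.29 ± 0.27). No overlap between the libraries was a condition for choosing all of these genes and is not a result about them.

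Under the same limits of 5 CPM and no overlap, genes without a name went further in both directions. The following 3 were chosen after their values were seen. LOC109944627 was at 8.4, 27.3 and 46.7 CPM after ZmPep3, against 0, 0 and 0.243 CPM in controls, where control 2 held the highest value (log2 fold change 9.16 ± 0.93, adjusted p = 3.28e-12). LOC100284823 was at 73.8, 186 and 249.8 CPM after ZmPep3, against 0.221, 0.895 and 5.54 CPM in controls, again with control 2 highest (log2 fold change 6.84 ± 0.51, adjusted p = 2.6e-17). Without control 2 the highest control of LOC109944627 was at 0.0274 CPM, too few counts for a stable ratio (its fitted log2 fold change was then 11.56), and the log2 fold change of LOC100284823 was 7.93. LOC100191500 was at 0, 0.0926 and 0.318 CPM after ZmPep3 and 4.05, 6.48 and 9.22 CPM in controls (log2 fold change -5.53 ± 0.44, adjusted p = 1.79e-16).

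The peptide receptor PepR1 and 2 of the 3 SERK co-receptor genes had higher transcript levels after ZmPep3. Of the 4 listed genes 3 rose and none fell, where 20.3% of all tested genes rose, and their median log2 fold change was 1.10. PepR1 (100381406), named as a receptor of these peptides, was at 2.76, 4.11 and 6.49 CPM after ZmPep3, against 0, 0.918 and 1.4 CPM in controls. Its lowest ZmPep3 library lay above its highest control (log2 fold change 2.43 ± 0.42, adjusted p = 2.26e-06). The co-receptor kinase gene serk2 was at 130.3, 157 and 191 CPM after ZmPep3 and 55.4, 67.2 and 76.7 CPM in controls (log2 fold change 1.25 ± 0.10, adjusted p = 1.14e-16), and serk3 at 248, 304 and 398 CPM after ZmPep3 and 137, 158 and 174 CPM in controls (log2 fold change 0.96 ± 0.12, adjusted p = 2.04e-09). Neither overlapped. serk1 was scarce, at 0.7 to 1.77 CPM after ZmPep3 and 0.083 to 1.26 CPM in controls, and did not pass the test (log2 fold change 0.72 ± 0.44, adjusted p = 0.19). Per gene length, PepR1 remained the scarcest of the 3 that rose, at 1.24 ± 0.367 FPKM after ZmPep3 (SD, n = 6), where serk2 had 75.5 ± 9.75 and serk3 145 ± 30.1 FPKM.

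Respiratory burst oxidases, the plasma membrane enzymes that make superoxide outside the cell, differed among themselves. rbohC (100101532) was at 114, 158 and 197 CPM after ZmPep3, against 27.5, 38.8 and 50.7 CPM in controls, a 4.11-fold rise (log2 fold change 2.04 ± 0.15, adjusted p = 1.89e-18). rbohD (100136880) was at 186, 219 and 366 CPM after ZmPep3, against 54.7, 93.1 and 117 CPM in controls (log2 fold change 1.39 ± 0.22, adjusted p = 2.42e-07). rbohB had nearly the same level in both groups, 19.3 to 24.3 CPM after ZmPep3 and 15.9 to 23.7 CPM in controls, and did not pass (log2 fold change 0.12 ± 0.11, adjusted p = 0.403). Of the 9 listed MAP kinase genes, which carry the signal from receptors to transcription factors, 3 rose (33.3%) and 2 fell (22.2%), none by 2-fold. mpk6 (0.71 ± 0.10) and MPK4 (0.85 ± 0.14) were higher and MPK5 lower (-0.29 ± 0.08), each without overlap between the groups. Of 25 calcium sensors and calcium-dependent kinases, 9 rose (36%) and 4 fell (16%). Over all tested genes 20.3% rose and 21.9% fell. A calmodulin gene (100280399) was at 25.1, 28.1 and 50.4 CPM after ZmPep3 and 4.18, 5.08 and 7.18 CPM in controls (log2 fold change 2.57 ± 0.36, adjusted p = 2.9e-08), while CBL10, a calcineurin B-like sensor, was at 0.127, 0.95 and 1.35 CPM after ZmPep3 and 3.91, 4.18 and 6.25 CPM in controls (log2 fold change -2.44 ± 0.37, adjusted p = 1.09e-07).

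Transcription factor families differed in their counts, and in several the shares of rises and falls lay near the 20.3% and 21.9% of all tested genes. Of 22 WRKY genes, a family that acts in plant immunity, 10 rose (45.5%) and 4 fell (18.2%), and the family median was 0.06. WRKY64 was at 69.9, 94.8 and 106 CPM after ZmPep3, against 8.05, 10.8 and 21.2 CPM in controls (log2 fold change 2.79 ± 0.22, adjusted p = 1.89e-16). WRKY67 was 4.2-fold higher and WRKY111 2.57-fold lower, and neither overlapped. Of 25 NAC genes 9 rose (36%) and 2 fell (8%). The falls numbered 0 without ZmPep3 library 3 or 6, and 1 without control 1, 4 or 6 or ZmPep3 library 2 or 4. NAC1 (100273092) was at 120.4 to 209.9 CPM after ZmPep3 and 19.5 to 48.8 CPM in controls, and NAC61 at 61.4 to 80.1 CPM after ZmPep3 and 11.1 to 23.8 CPM in controls. Of 41 bHLH genes 12 rose (29.3%) and 10 fell (24.4%), and of 51 MYB genes 13 rose (25.5%) and 15 fell (29.4%). When only the 2 groups were fitted, 12 of 43 tested MYB genes rose and 9 fell.

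MYC2a (541694), named after the Arabidopsis bHLH factor that drives jasmonate responses, was at 245, 309 and 387 CPM after ZmPep3, against 71.7, 91.9 and 103 CPM in controls. The lowest ZmPep3 library held far more than the highest control (log2 fold change 1.83 ± 0.12, adjusted p = 5.46e-20). bHLH30 (3.06 ± 0.24) and bHLH76 (2.88 ± 0.27) rose from lower levels. Among AP2/ERF genes, 7 of 34 rose (20.6%) and 5 fell (14.7%), close to or under the shares of all genes. Those with the smallest p were EREB197, at 18.7 to 27.4 CPM after ZmPep3 and 76.6 to 102 CPM in controls (-1.98 ± 0.14), EREB192 (0.98 ± 0.11) and EREB101, at 5.37 to 8.37 CPM after ZmPep3 and 0.351 to 1.17 CPM in controls (3.04 ± 0.35). Of 32 bZIP genes 8 rose (25%) and 9 fell (28.1%), with bZIP113 at the smallest p (-1.24 ± 0.12). Of 9 heat shock factor genes 2 rose (22.2%) and 1 fell (11.1%), and 2 fell without ZmPep3 library 2. HSF29 was at 16.3 to 25.9 CPM after ZmPep3 and 8.32 to 10.1 CPM in controls (1.23 ± 0.14). The MYB genes with the smallest p were falls, MYBR32 (-1.38 ± 0.12), MYB30 (-2.85 ± 0.32) and MYB59 (100194394, -1.81 ± 0.17).

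The counts of this and the following lists stand beside 20.3% rises and 21.9% falls over all tested genes. Lipoxygenase genes, which encode the enzymes that open the oxylipin pathways, were higher almost throughout: 10 of the 12 rose, 7 of them by 2-fold or more, and none fell (median log2 fold change 1.43). lox5 (100037804), a 9-lipoxygenase, was at 2005, 2863 and 4547 CPM after ZmPep3, against 84.6, 147 and 509 CPM in controls, with control 2 far above the other controls. It was 15.5-fold higher (log2 fold change 3.95 ± 0.35, adjusted p = 1.6e-14). lox2 (100037802) was at 517, 1005 and 1425 CPM after ZmPep3 and 45.5, 64.5 and 221 CPM in controls (log2 fold change 3.26 ± 0.29, adjusted p = 5.91e-15). lox3, another 9-lipoxygenase, was 9.21-fold higher and did not overlap. lox10, chosen after its values were seen, makes the precursors of green leaf volatiles and was by far the most abundant lipoxygenase transcript per gene length, at 8785 ± 1279 FPKM after ZmPep3 and 7287 ± 1414 FPKM in controls (SD, n = 6 each). Its difference was small (log2 fold change 0.48 ± 0.18, adjusted p = 0.0217) and missed the threshold without control 3, 4 or 5 or ZmPep3 library 2. With no filter on low counts the difference missed it too (adjusted p = 0.0619). The FPKM, which are not scaled as the tested counts are, differed less between the groups. Without ZmPep3 library 2, 8 lipoxygenase genes rose and 1 fell.

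Genes for the steps of jasmonate synthesis after lipoxygenase form a separate list. The 9-lipoxygenases above are not of the type named for jasmonate, and which of the listed lipoxygenases supply it was not tested. In the separate list 9 of 14 genes rose, 8 of them by 2-fold or more, and 1 fell (median 1.12). The allene oxide synthase genes led. aos1 (542150) was at 1033, 1648 and 1958 CPM after ZmPep3, against 52.8, 132 and 275 CPM in controls, so that its lowest ZmPep3 library held several times the highest control (log2 fold change 3.53 ± 0.29, adjusted p = 3.43e-16). aos2 was 10.7-fold higher (3.42 ± 0.26) and aos3 6.42-fold (2.68 ± 0.19), both without overlap. aoc1, an allene oxide cyclase, and opr7, an oxophytodienoate reductase, were chosen after their values were seen. aoc1 averaged 258 ± 39.0 CPM after ZmPep3 and 103 ± 22.0 CPM in controls (log2 fold change 1.33 ± 0.13), and opr7 averaged 207 ± 44.2 CPM after ZmPep3 and 74.4 ± 22.6 CPM in controls (1.47 ± 0.15; SD of levels, n = 6 each).

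Most TIFY genes were higher after ZmPep3. Of 21 genes 17 rose, 15 of them by 2-fold or more, and 2 fell slightly, 1 without control 4 (median 1.68). The count of rises was 16 or 17 without each leaf 4 library of these groups in turn. TIFY20 (100286212) was at 21.3, 29.8 and 47.1 CPM after ZmPep3, against 0.893, 1.61 and 2.11 CPM in controls, a 20.4-fold difference with tight groups (log2 fold change 4.35 ± 0.26, adjusted p = 3.98e-21). JAZ9 was at 12.9, 15.7 and 25.4 CPM after ZmPep3 and 0.847, 1.32 and 2.03 CPM in controls (log2 fold change 3.68 ± 0.37, adjusted p = 5.82e-13). TIFY28 (3.29 ± 0.29) and the more abundant TIFY6, at 297 to 347 CPM after ZmPep3 and 87.4 to 150.1 CPM in controls, also rose.

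**Figure D2:**
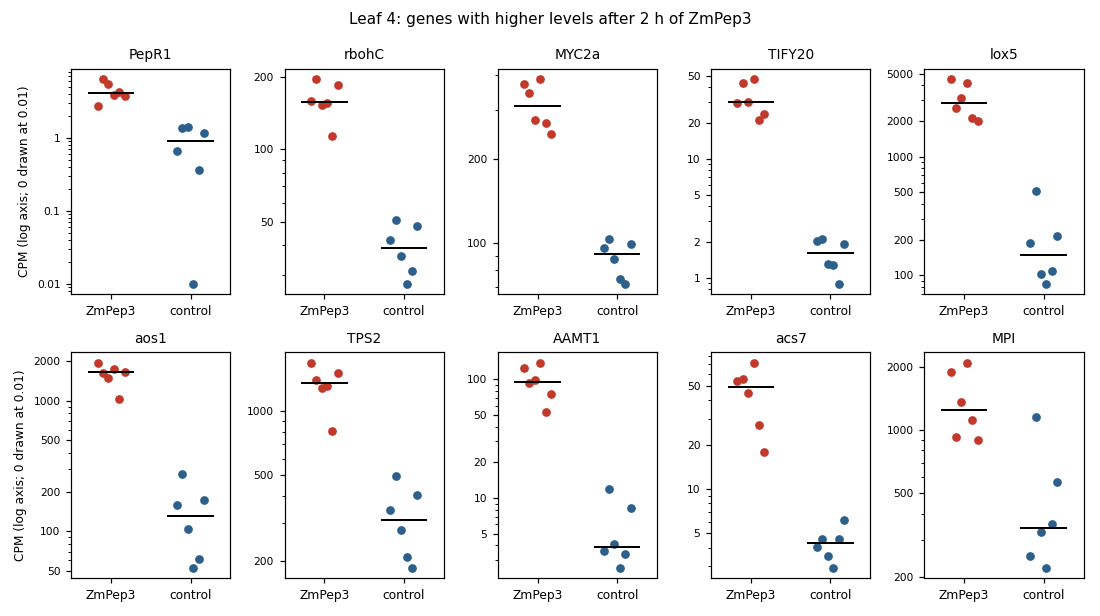
Level of 10 genes in each leaf 4 library (CPM, log axis, 0 drawn at 0.01), ZmPep3 in red on the left and control in blue on the right of each panel, with a bar at the median of 6. MPI alone overlaps, since control library 2 at 1151 CPM lies within the ZmPep3 range of 893 to 2095 CPM.

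Genes for both committed steps of ethylene synthesis rose. Of 6 genes 4 rose and none fell. acs7 (100279981), an aminocyclopropane carboxylate (ACC) synthase, was at 17.8, 49.1 and 72 CPM after ZmPep3, against 2.93, 4.32 and 6.13 CPM in controls (log2 fold change 3.39 ± 0.27, adjusted p = 3.05e-16). ACO31 (542136), an ACC oxidase, was at 38.1, 68.6 and 120.1 CPM after ZmPep3, against 2.62, 6.1 and 12.9 CPM in controls (log2 fold change 3.40 ± 0.44, adjusted p = 3.29e-09). ACS6 was scarce and overlapped, at 0.74 to 2.92 CPM after ZmPep3 and 0 to 1.16 CPM in controls (2.44 ± 0.53; 3.59 without control 6). SAMS1, named for an S-adenosylmethionine synthase, which supplies the methyl donor and ethylene precursor, was chosen after its values were seen. It was at 3134, 3489 and 4957 CPM after ZmPep3 and 429, 569 and 1052 CPM in controls (log2 fold change 2.50 ± 0.19, adjusted p = 1.28e-17).

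Of the 9 tested terpene synthase genes 8 rose, 7 by 2-fold or more, and none fell (median 2.21). TPS2 (732758) and TPS3 (732759) belong to the linalool and nerolidol synthases of maize. TPS2 was at 809.7, 1355 and 1685 CPM after ZmPep3, against 186, 311 and 499.6 CPM in controls (log2 fold change 2.06 ± 0.27, adjusted p = 5.19e-09). TPS3 was at 352, 776 and 1099 CPM after ZmPep3, against 105, 165 and 249 CPM in controls (log2 fold change 2.21 ± 0.31, adjusted p = 2.39e-08). TPS5 (103641226) had no count in any control and 1.08, 3.4 and 5.34 CPM after ZmPep3, at least 235-fold higher if 3 counts over the 6 controls are taken as the floor. tps10 (732751), the synthase of the sesquiterpenes farnesene and bergamotene, was at 361, 604 and 774 CPM after ZmPep3, against 32.1, 80.0 and 258 CPM in controls (log2 fold change 2.49 ± 0.51, adjusted p = 4.57e-05). The list counted 6 to 8 rises without each library in turn.

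The precursor pathway of the plastid was higher at 3 of 8 listed genes and lower at 1 (2 without control 2 or ZmPep3 library 5). dxs2 (606430), the enzyme that starts it, was at 449, 706 and 911 CPM after ZmPep3, against 40.9, 69.9 and 101 CPM in controls (log2 fold change 3.32 ± 0.29, adjusted p = 5.71e-15). Hds1 (0.97 ± 0.11) and lw1 (1.13 ± 0.13), which act at its end, rose about 2-fold. Of 7 genes for indole, methyl anthranilate and homoterpenes 5 rose and none fell. CYP92C5 (103631958), the P450 enzyme that forms the homoterpene DMNT, was at 563, 742 and 954 CPM after ZmPep3, against 46.5, 72.7 and 108 CPM in controls (log2 fold change 3.31 ± 0.26, adjusted p = 5.62e-17). AAMT1 (100500707), an anthranilate methyltransferase, was 17.2-fold higher, at 53.4 to 138 CPM after ZmPep3 and 2.6 to 12 CPM in controls, and AAMT2 2.74-fold higher.

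Other defence metabolites were less uniform. Of 13 benzoxazinoid genes, which make the main indole-derived toxins of grasses, 6 rose and none fell, but only BX14 did so by 2-fold. BX14 (100281319), an O-methyltransferase late in the pathway, was at 9.7, 15.4 and 31.8 CPM after ZmPep3, against 0.554, 1.54 and 3.3 CPM in controls (log2 fold change 3.43 ± 0.49, adjusted p = 3.53e-08). The abundant Bx7 was at 2682 to 3889.5 CPM after ZmPep3 and 1839 to 2819.7 CPM in controls and overlapped (0.72 ± 0.17), and bx9, a glucosyltransferase, rose by 0.46 ± 0.11. In the diterpenoid list 3 of 5 genes rose and 1 fell, and none fell without control 2 or 4 or ZmPep3 library 1 or 4. eks1, named for a kaurene synthase, was at 266 to 528 CPM after ZmPep3 and 132 to 211 CPM in controls (1.26 ± 0.15). CYP71Z18, a P450 of terpenoid phytoalexins, was at 6.85, 8.59 and 37.9 CPM after ZmPep3, where library 2 stood far above the others, and 0.527, 1.03 and 2.81 CPM in controls (3.19 ± 0.71; 2.53 without that library). an2, a copalyl diphosphate synthase, was scarce, at 0.223 to 1.48 CPM after ZmPep3 and 0 to 0.383 CPM in controls.

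In the phenylpropanoid and lignin list 8 of 21 genes rose and 2 fell, and without ZmPep3 library 2 there were 7 rises and 4 falls. 4CL (542166), 4-coumarate:CoA ligase, was at 767, 1110.5 and 1241 CPM after ZmPep3, against 144, 209 and 270.3 CPM in controls. Its groups were tight and distant (log2 fold change 2.40 ± 0.13, adjusted p = 2.73e-23). The caffeoyl-CoA methyltransferase genes CCOAOMT2 (1.17 ± 0.12) and ccoaomt1 (0.81 ± 0.12) rose from already high levels. In the flavonoid branch 1 of 11 genes rose, a2 (0.91 ± 0.09), an anthocyanidin synthase, and 2 fell, CHI (-0.65 ± 0.14) and chs1 (-0.66 ± 0.16), chalcone isomerase and chalcone synthase. In the shikimate and tryptophan list 5 of 8 rose, all by less than 2-fold, among them CM1 (0.69 ± 0.10), a chorismate mutase, TSA (0.85 ± 0.12) and orp2 (0.92 ± 0.14), subunits of tryptophan synthase.

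Transcripts of defence proteins rose widely. Of 13 proteinase inhibitor genes 8 rose (61.5%, against 20.3% of all tested genes) and none fell. Without ZmPep3 library 2 there were 7 rises and 1 fall. wip1 (542729), a wound-induced inhibitor, was at 21.7, 41.9 and 53.8 CPM after ZmPep3, against 1.38, 4.53 and 7.89 CPM in controls (log2 fold change 3.31 ± 0.44, adjusted p = 3.96e-09). cc9 (103652885), a cystatin, was at 512, 951 and 1098 CPM after ZmPep3, against 104, 117 and 483 CPM in controls. Control 2 alone made up the upper end of the controls, and without it the log2 fold change of 2.30 ± 0.35 was 2.93. MPI and PR-5 were chosen after their values were seen. MPI (542408), the maize proteinase inhibitor, was abundant per gene length, at 3874 ± 1315 FPKM after ZmPep3 and 1644 ± 1242 FPKM in controls (SD, n = 6 each). Its groups overlapped (log2 fold change 1.53 ± 0.34, adjusted p = 0.000151). As for lox10, the FPKM differed less between the groups than the tested counts.

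Of 16 tested antimicrobial and antifeedant genes, which include wip1 and MPI, 13 rose and 1 fell (median 1.99). RIP (541814), a ribosome-inactivating protein, was at 102, 148 and 187 CPM after ZmPep3, against 21.8, 23.5 and 54 CPM in controls (log2 fold change 2.36 ± 0.21, adjusted p = 8.61e-15). chiA, a chitinase, was at 0.859 to 5.83 CPM after ZmPep3 and 0 to 0.378 CPM in controls (3.89 ± 0.59). PR-5, a thaumatin-like protein, was at 585, 766 and 1520.3 CPM after ZmPep3 and 94.8, 172 and 368 CPM in controls (2.14 ± 0.40). The call of PR-1, chosen after its values were seen, rests on 1 library. It was at 7.76, 23.5 and 466 CPM after ZmPep3, against 3.13, 9.18 and 13.7 CPM in controls, and ZmPep3 library 2 supplied the highest value. The log2 fold change of 3.41 ± 1.05 (adjusted p = 0.00639) was 1.04 without that library, with adjusted p = 0.424. Without ZmPep3 library 2 the list counted 11 rises and no fall, and without ZmPep3 library 1 it counted 13 rises and 2 falls.

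**Figure D3:**
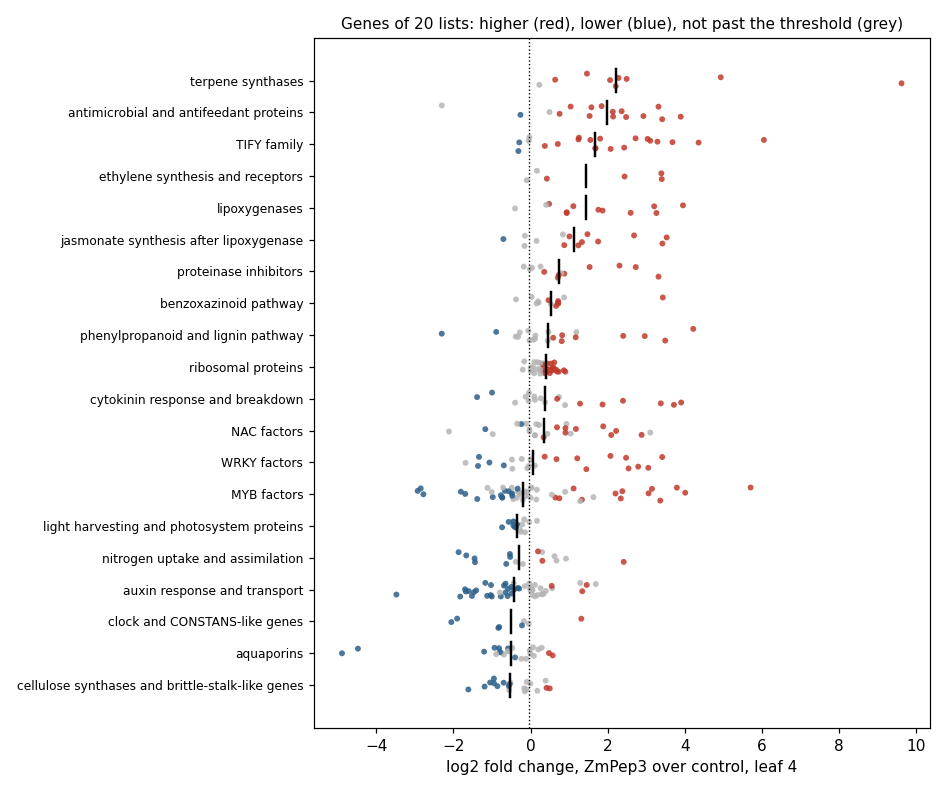
Log2 fold change (ZmPep3 over control, leaf 4) of each tested gene in 20 lists, red for genes higher, blue for genes lower and grey for genes not past the threshold, with a bar at each list's median and a dotted line at the median of all genes, -0.05. Terpene synthases have the rightmost list median, 2.21, and cellulose synthases the leftmost, -0.53.

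Of 33 glutathione transferase genes 7 rose (21.2%, against 20.3% of all genes) and 3 fell (9.09%), with gst23 (2.14 ± 0.21), gst20 (1.84 ± 0.19) and GST25 (2.25 ± 0.35) at the smallest p. Among peroxide and superoxide enzymes 3 of 19 rose (15.8%) and 6 fell (31.6%, against 21.9% of all genes). PER2, a peroxidase, was at 3.02 to 10.2 CPM after ZmPep3 and 0.586 to 1.7 CPM in controls (2.51 ± 0.57), while cat2 (542230), a catalase, was at 33.3, 51 and 64.7 CPM after ZmPep3, against 97.2, 111 and 116 CPM in controls (log2 fold change -1.10 ± 0.15, adjusted p = 1.51e-08). The 3 genes of the heat shock protein list with the smallest p were HSP70 genes: hsp70-4 (0.77 ± 0.10), bip2 (1.03 ± 0.17) and b-70 (1.10 ± 0.20), the last pair encoding BiP, the chaperone of the endoplasmic reticulum. In that list 6 of 17 rose (35.3%) and 2 fell (11.8%).

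Ribosomal protein genes rose by small steps: 22 of 36 passed, none by 2-fold and none downward, with a median of 0.40. rps6 was at 34.9, 40.2 and 55.4 CPM after ZmPep3 and 20.9, 22.2 and 28.1 CPM in controls (log2 fold change 0.86 ± 0.12, adjusted p = 1.58e-08), and RPL27A (0.72 ± 0.12) and RPS21 (0.90 ± 0.17) rose likewise without overlap. The median was 0.40 with DESeq2 size factors too. It was 0.33 with no filter on low counts and 0.33 without ZmPep3 library 4, with 17 rises in each case. Of 19 cytokinin genes 7 rose and 2 fell, 1 without control 3 or ZmPep3 library 2 or 6. The cytokinin oxidases CKX4, at 102, 136 and 162 CPM after ZmPep3 against 4.77, 8.66 and 14.7 CPM in controls, CKX4b (3.71 ± 0.30) and cko2 (2.39 ± 0.25) stood out. In the list of sugar transport and cleavage 5 of 11 rose and 3 fell. IVR1, an invertase, was 3.32-fold higher and MST1, a monosaccharide transporter, 2.7-fold higher, while sus1, a sucrose synthase, was 2.72-fold lower.

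Falls outnumbered rises in the lists of aquaporins, auxin, clock, nitrogen and cell wall genes, against 21.9% of all tested genes that fell. Of 24 aquaporin genes 2 rose and 8 fell (median -0.52). PIP1-3 (541886), of the plasma membrane type, was at 116, 135 and 173 CPM after ZmPep3, against 197, 243 and 263 CPM in controls (log2 fold change -0.79 ± 0.11, adjusted p = 3.53e-08). TIP4-2 was at 24.1 to 33.1 CPM after ZmPep3 and 51.8 to 61.3 CPM in controls (-0.93 ± 0.15). Of 47 auxin genes 24 fell, 13 by 2-fold or more, and 3 rose (median -0.43). The auxin response factor gene ARF17 was at 8.34, 9.63 and 13.2 CPM after ZmPep3, against 31.1, 38.3 and 41.6 CPM in controls (log2 fold change -1.82 ± 0.16, adjusted p = 1.02e-14), and ARF19 fell by 1.17 ± 0.13. ARF10 went the other way, at 179, 191 and 218 CPM after ZmPep3 and 64.4, 81 and 86.4 CPM in controls (log2 fold change 1.34 ± 0.11, adjusted p = 5.33e-17).

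Abscisic acid genes changed in both directions. The list of 41 had 12 rises (29.3%, against 20.3% of all genes) and 14 falls (34.1%, against 21.9%). The rises included the protein phosphatase 2C genes PP2C19, at 694, 747 and 857 CPM after ZmPep3 against 151, 208 and 260.1 CPM in controls (log2 fold change 1.87 ± 0.15, adjusted p = 3.97e-16), and PP2C30 (1.64 ± 0.19). In Arabidopsis such phosphatases repress the pathway until a receptor binds them. The falls included the receptor PYL7, at 7.13, 8.27 and 14.5 CPM after ZmPep3 against 26.5, 37.8 and 56.9 CPM in controls, and the kinase SnRK2.5 (-1.39 ± 0.16). Among 8 clock and CONSTANS-like genes, which time responses to day length, 5 fell and 1 rose. COL8 was at 4.33, 7.39 and 14.3 CPM after ZmPep3, against 22.9, 31.8 and 38 CPM in controls (log2 fold change -1.90 ± 0.17, adjusted p = 9.34e-15), COL5 fell by 2.05 ± 0.29 and COL14 rose by 1.31 ± 0.15. The harvest time of day of either group is not in the labels, and its part in these values was not tested.

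Of 16 nitrogen genes 7 fell and 3 rose, while 6 fell and 1 rose without ZmPep3 library 2, and 8 fell and 1 rose with no filter on low counts. NNR1 (542278), a nitrate reductase, was at 18.6, 21.4 and 30.7 CPM after ZmPep3, against 49.8, 77.1 and 93.9 CPM in controls (log2 fold change -1.67 ± 0.21, adjusted p = 9.56e-10). The nitrate transporter genes NRT1.2 (-1.45 ± 0.15) and Nrt1.1 (-1.44 ± 0.19) were both lower without overlap. In the cellulose list 9 of 20 genes fell and 2 rose (median -0.53). CesA-7 (541805), a cellulose synthase subunit, was at 57.6, 70.3 and 93.2 CPM after ZmPep3, against 132, 174 and 191 CPM in controls (log2 fold change -1.19 ± 0.14, adjusted p = 5.88e-11). CesA-9 (-0.86 ± 0.12) and CesA-4 (-0.56 ± 0.10) fell less. Of 13 expansin and xyloglucan genes, which loosen walls, 5 fell and 1 rose, and of these expB8 was at 0.754 to 3.79 CPM after ZmPep3 and 4.87 to 9.43 CPM in controls (-1.74 ± 0.22). The gene that rose, expA4, was at 1.51 to 3.21 CPM after ZmPep3 and 0.0547 to 0.216 CPM in controls (3.90 ± 0.51).

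**Figure D4:**
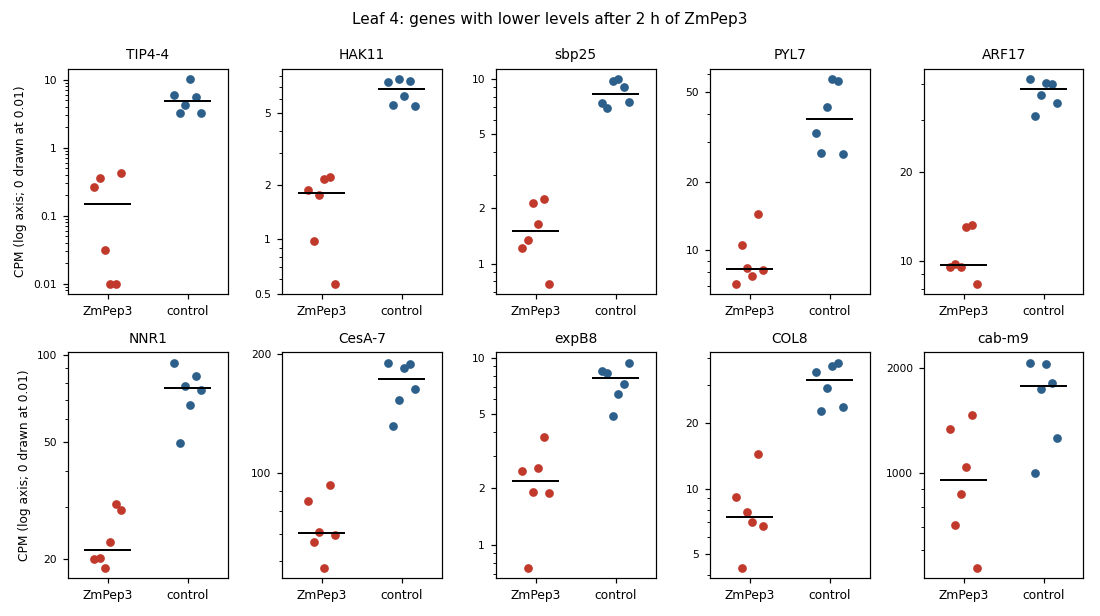
Level of 10 genes in each leaf 4 library (CPM, log axis, 0 drawn at 0.01), ZmPep3 in red on the left and control in blue on the right of each panel, with a bar at the median of 6. cab-m9 alone overlaps, at 536 to 1472 CPM after ZmPep3 and 1002 to 2073 CPM in controls.

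Of 15 light harvesting and photosystem genes 7 fell and none rose, none by 2-fold, with a median of -0.35. The number that fell was 4 without ZmPep3 library 2, 10 without ZmPep3 library 5 and 3 when only the groups compared were fitted. cab-m9, a chlorophyll a/b-binding protein, fell most, at 536, 954 and 1472 CPM after ZmPep3 and 1002, 1777 and 2073 CPM in controls, with overlap (log2 fold change -0.74 ± 0.18, adjusted p = 0.000415). psad1 (-0.57 ± 0.16) and OEE3 (-0.45 ± 0.13), proteins of photosystems I and II, overlapped as well. Of the 6 C4 genes 1 rose (16.7%, against 20.3% of all genes) and 2 fell (33.3%, against 21.9%). CA, a carbonic anhydrase, was at 55.8 to 123 CPM after ZmPep3 and 19 to 51.1 CPM in controls (1.22 ± 0.22). It was listed by its name and was far scarcer than pdk1, and whether this gene serves the C4 cycle was not tested. pdk1, pyruvate phosphate dikinase, was at 8028, 8251 and 10536 CPM after ZmPep3 and 7353, 8233 and 10177 CPM in controls and did not pass (0.09 ± 0.11, adjusted p = 0.537). me3, the malic enzyme of the bundle sheath (-0.46 ± 0.16, adjusted p = 0.0162), and mdh6, a malate dehydrogenase (-0.21 ± 0.08), were lower, but both calls were lost without control 1, without ZmPep3 library 2 and when only the 2 groups were fitted. Without control 1 the adjusted p was 0.0646 for me3 and 0.0568 for mdh6, and without ZmPep3 library 2 it was 0.0807 for me3 and 0.0565 for mdh6. SGR1, a stay-green gene of chlorophyll breakdown, was at 18.8, 41.7 and 66.4 CPM after ZmPep3 and 2.6, 8.44 and 25.8 CPM in controls (log2 fold change 2.07 ± 0.38, adjusted p = 6.92e-06). The chlorophyll list had 2 rises and 1 fall among 8 genes, and 2 falls without control 4 or 6 or ZmPep3 library 1, 3 or 4. The Calvin cycle list had 1 fall among 5, and none without control 1 or 4 or ZmPep3 library 2, 3, 4 or 6. The replication histones had 1 rise and 1 fall among 6, and no rise without ZmPep3 library 6.

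ZmPep3 was also set directly against HAC at 2 h in leaf 4, which needs no control libraries. Of the 25558 genes 7979 differed (31.2%), 3882 of them higher after ZmPep3 (15.2%) and 4097 lower (16%). Differences were ranked among named genes with at least 5 CPM on the higher side and no overlap between the 2 groups. The 5 largest in the higher direction were TIFY29, TIFY20, pdc1, CKX4b and CKX4. TIFY29 was at 10.1 ± 4.72 CPM after ZmPep3 and 0.394 ± 0.417 CPM after HAC (SD, n = 6 each; log2 fold change 4.66 ± 0.52, adjusted p = 5.14e-11). TIFY20 was at 32.6 ± 10.5 CPM after ZmPep3 and 2.58 ± 1.3 CPM after HAC (3.66 ± 0.25), and CKX4b at 47 ± 23.9 CPM after ZmPep3 and 4.44 ± 1.74 CPM after HAC (3.40 ± 0.30). In the lower direction the largest were HAK11, mde1, sbp25, zmCL2-1 and COL8. HAK11 was at 1.6 ± 0.672 CPM after ZmPep3 and 9.13 ± 2.39 CPM after HAC (-2.52 ± 0.33, adjusted p = 5.32e-09).

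By list, 17 of 21 TIFY genes, 7 of 12 lipoxygenase genes and 6 of 9 terpene synthase genes were higher after ZmPep3 than after HAC, and 1 TIFY gene was lower. PepR1 was at 4.46 ± 1.32 CPM after ZmPep3 and 2.34 ± 1.34 CPM after HAC, which did not pass the test (0.93 ± 0.40, adjusted p = 0.0671). lox10 was at 25093 ± 4155 CPM after ZmPep3 and 25515 ± 5252 CPM after HAC, a log2 difference of -0.02 ± 0.17 that did not pass either (adjusted p = 0.942). In the benzoxazinoid list 1 of 13 genes was higher after ZmPep3, BX14 (2.36 ± 0.46). By comparison 15.2% of all genes were higher after ZmPep3 and 16% lower. HAC was given from volatile dispensers and ZmPep3 through the water at the cut base, and the doses cannot be matched.

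The effect of ZmPep3 in leaf 4 was compared with that in the younger leaves by testing the difference of the log2 fold changes, each against the control of its own leaf. The effect in leaf 5 differed from that in leaf 4 for 1911 genes (7.48%), and in leaf 6 for 4759 genes (18.6%). Differences are written as leaf 5 or leaf 6 minus leaf 4. For leaf 5, 1361 differences were positive (5.33%) and 550 negative (2.15%), and for leaf 6, 3123 were positive (12.2%) and 1636 negative (6.4%). The leaf 6 split depended on the processing: with a filter of 1 CPM it was 2425 and 2247.

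Differences were ranked among named genes past the threshold that averaged at least 5 CPM in at least 1 group compared. By that ranking tps10 had the largest positive difference to leaf 5. In leaf 4 it was at 611 ± 154 CPM after ZmPep3 and already at 109 ± 88 CPM in controls. In leaf 5 it was at 109 ± 67.5 CPM after ZmPep3 and 0.462 ± 0.258 CPM in controls, and in leaf 6 at 84.2 ± 12.7 CPM after ZmPep3 and 0.947 ± 1.04 CPM in controls (SD, n = 6 each). The differences were 5.38 ± 0.81 for leaf 5 (adjusted p = 5.13e-06) and 4.02 ± 0.77 for leaf 6 (adjusted p = 7.63e-05), although the level after ZmPep3 was highest in leaf 4. WRKY96 was of the same kind: 16.1 ± 3.66 CPM after ZmPep3 and 2.89 ± 3.15 CPM in controls in leaf 4, against 1.9 ± 1.22 CPM after ZmPep3 and 0.00599 ± 0.0147 CPM in controls in leaf 6 (difference 5.10 ± 1.25). Of the leaf 6 controls control 2 alone held any WRKY96 count, so the size of this difference is uncertain (6.36 without that library and 4.33 without leaf 4 control 6). geb1, named for a glucanase, overlapped in leaf 4, where control 6 reached 215 CPM, and its effect was larger in leaf 5 by 3.16 ± 0.83. Its leaf 4 log2 fold change of 1.58 ± 0.58 was 2.64 without control 6 and lost its call without control 1, 3, 4 or 5 or ZmPep3 library 4. That call was also lost when only the 2 leaf 4 groups were fitted (adjusted p = 0.0986). The difference to leaf 5 was 2.10 without control 6, with adjusted p = 0.0842.

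ZAR1, at 6.59 ± 1.29 CPM after ZmPep3 and 2.29 ± 0.824 CPM in controls of leaf 4, had a larger effect in leaf 6 by 4.47 ± 0.65. Dwarf2 and inra2(prp) were near 0 in leaf 4, at most 0.209 and 0.185 CPM after ZmPep3 and 0.433 and 0.324 CPM in controls, while Dwarf2 in leaf 6 was at 39 ± 5.89 CPM after ZmPep3 and 3.42 ± 1.3 CPM in controls (difference 4.70 ± 0.90). The leaf 5 differences of Dwarf2 (3.33 ± 0.89) and inra2(prp) (4.55 ± 1.20) missed the threshold without leaf 4 control 2, as did the leaf 6 difference of inra2(prp) (3.75 ± 1.18). CISZOG2 was at 5.48 ± 2.89 CPM after ZmPep3 and 2.95 ± 1.25 CPM in controls of leaf 4, which did not pass, and its effect was larger in leaf 5 by 3.25 ± 1.06 (adjusted p = 0.0463), a call kept under 12 of 30 alternatives.

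Other genes had a smaller or a more negative effect in the younger leaves. bHLH30 was at 9.35 ± 3.3 CPM after ZmPep3 and 1.11 ± 0.458 CPM in controls of leaf 4, while in leaf 5 it was at 15.9 ± 1.78 CPM after ZmPep3 and 9.98 ± 1.78 CPM in controls (difference -2.40 ± 0.31, adjusted p = 1.83e-07). EREB71 was at 25.2 ± 9.39 CPM after ZmPep3 and 3.85 ± 1.47 CPM in controls of leaf 4, and at 4.26 ± 1.32 CPM after ZmPep3 and 8.9 ± 8.02 CPM in controls of leaf 6. Its differences were -2.16 ± 0.59 for leaf 5 and -3.77 ± 0.60 for leaf 6 (adjusted p = 0.0137 and 2.48e-06). TPS9 (100281927) is not in the terpene synthase list, and the reference table gives no product for it. It was at 90.8 ± 30.5 CPM after ZmPep3 and 12.3 ± 7.55 CPM in controls of leaf 4. In leaf 5 it was at 48.5 ± 12.2 CPM after ZmPep3 and 27.8 ± 16.5 CPM in controls (difference -2.08 ± 0.44). asn2, named for an asparagine synthetase, was at 3.67 ± 3.67 CPM after ZmPep3 and 0.694 ± 0.696 CPM in controls of leaf 4 and had a difference of -3.03 ± 0.78 for leaf 5. Without leaf 5 control 6, which held 83.8 CPM, it was -2.13 with adjusted p = 0.0607. When only the groups compared were fitted, the asn2 difference also missed the threshold (adjusted p = 0.0633). gst11 and HB53 were scarce in leaf 4, at most 0.209 and 0.555 CPM after ZmPep3 and 0.0811 and 0.0279 CPM in controls. The gst11 difference to leaf 5 (-2.01 ± 0.63) was lost under 7 of 30 alternatives, and the HB53 difference to leaf 6 was -5.09 ± 0.96.

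For leaf 6, Yucca2 and DBP4 had large negative differences with no call in leaf 4. Yucca2, of the auxin synthesis family, was at 10.7 ± 2.54 CPM after ZmPep3 and 8.16 ± 3.81 CPM in controls of leaf 4, and at 0.0753 ± 0.0757 CPM after ZmPep3 and 1.74 ± 2.86 CPM in controls of leaf 6 (difference -4.86 ± 1.11). bHLH150 was at 8 ± 2.54 CPM after ZmPep3 and 2.6 ± 1.56 CPM in controls of leaf 4, where the groups did not overlap, and at 1.06 ± 0.771 CPM after ZmPep3 and 6.97 ± 7.78 CPM in controls of leaf 6 (difference -4.33 ± 0.85). Leaf 6 control 4 was the highest of its group for Yucca2, bHLH150, DBP4 and EREB71. Without it the differences were -3.37 for Yucca2, -3.49 for bHLH150 and -3.16 for EREB71, all past the threshold, while that of DBP4 (-3.65 ± 0.95) was -1.81 with adjusted p = 0.157.

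By list, of 36 ribosomal protein genes the effect was smaller in leaf 6 than in leaf 4 for 18 and larger for none, where 6.4% of all tested genes had a negative and 12.2% a positive difference. It was smaller in leaf 5 for 2 of them, where the shares of all genes were 2.15% negative and 5.33% positive. Of 20 cellulose genes the effect in leaf 6 was above that in leaf 4 for 11 and below it for 1, and in leaf 5 above it for 7. CesA-7, which fell in leaf 4, was at 402 ± 23.6 CPM after ZmPep3 and 357 ± 55.8 CPM in controls of leaf 6 (difference 1.36 ± 0.19, adjusted p = 1.82e-07). Among 12 lipoxygenase genes the effect was larger for 2 in leaf 5, and for leaf 6 it was larger for 3 and smaller for 1. The 4 perception genes differed in no case in leaf 5, while serk2 (0.47 ± 0.14) and serk3 (0.96 ± 0.18) had larger effects in leaf 6.

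**Figure D5:**
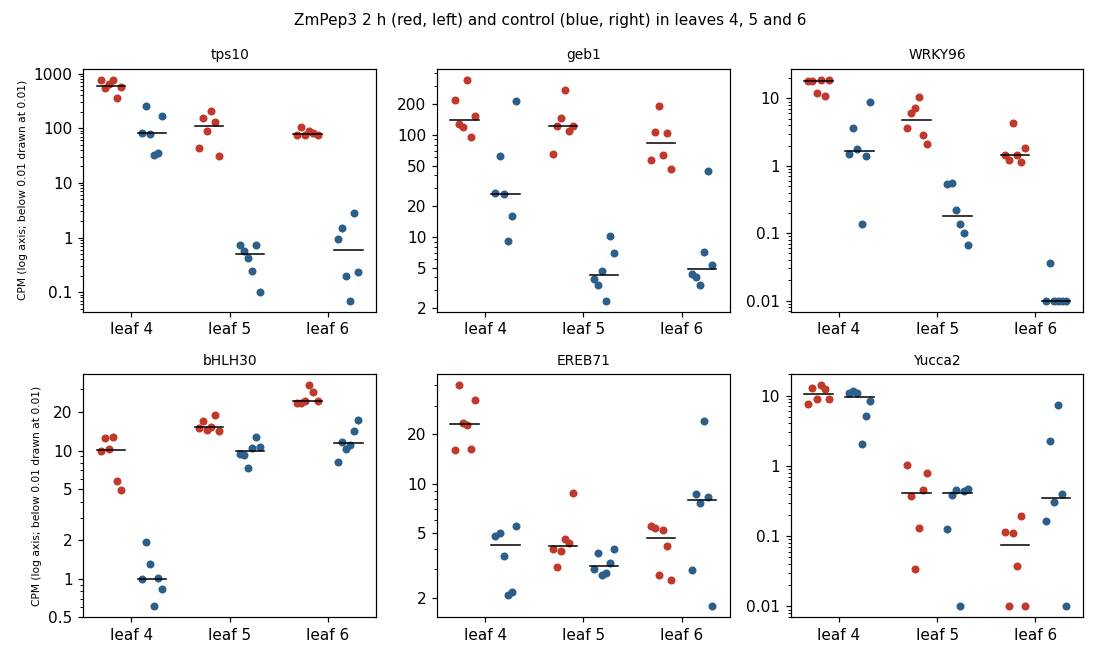
Level of 6 genes in each library of leaves 4, 5 and 6 (CPM, log axis, values below 0.01 drawn at 0.01), ZmPep3 in red left of control in blue within each leaf, with a bar at the median of 6. tps10 and WRKY96 have their highest control medians in leaf 4, and bHLH30 its lowest.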

How the data were processed

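RNA of whole detached leaves was sequenced on BGI DNBSEQ, per the labels. Per the submitters' processing notes, the tools were Bowtie2 and RSEM and the genome was B73 RefGen_v4, with versions not given in the sources used here. The authors deposited RSEM expected counts and FPKM for 43547 genes, of which 11312 were blank in every library. RSEM splits reads among similar genes, and 11.1% of values above 0 were not whole (tolerance 1e-06), so near-identical copies are uncertain. Expected counts were rounded and tested with edgeR 4.0.16 (quasi-likelihood, TMM, filterByExpr over 12 groups, all 72 libraries in 1 fit), with Benjamini-Hochberg adjustment over 25558 genes and a threshold of 0.05. Deposited FPKM, scaled to gene length, were used to compare levels between genes, and CPM are the rounded counts scaled to each library's TMM-adjusted size. FPKM were used as deposited, without the TMM scaling, so their ratios between groups can differ from the log2 fold changes. SE is the log2 fold change divided by the root of F. Library totals were 26212027 to 31052273 counts. The labels call the 6 libraries of a group biological replicates. The p-values rest on the spread of libraries within groups, with 1 estimate per gene shared by all 12 groups.

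Contrasts were ZmPep3 against control and against HAC in leaf 4, and the ZmPep3 effect in leaf 5 or 6 minus that in leaf 4. Alternatives were DESeq2 size factors, the DESeq2 1.42.0 Wald test, no filter, a filter of 1 CPM, a replicate block, only the groups compared, and each library left out. The fit was tested on simulated counts. The comparison, the gene lists and the rule for named genes were chosen with earlier results of these data known. The rule took the 10 largest rises and 8 largest falls among named genes. It also took up to 3 genes of smallest p per list and all receptor genes. In the other contrasts it took the 5 largest differences each way, among named genes past the threshold with a mean of at least 5 CPM. For ZmPep3 against HAC the rule also asked for no overlap between the 2 groups. Its part on unnamed genes with a description, and promoter sequences, were not used here. Gene names were taken from RefSeq (Zm-B73-REFERENCE-NAM-5.0). As the authors' build is another, no coordinates are given. Of 32235 genes with values 30403 were in that table and 2553 had a name other than a locus number. Gene numbers in brackets are NCBI Gene identifiers.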

Additional observations from a re-analysis of the deposited data

Results flagged for a closer look

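For the 154 genes named above that were tested, the 6 values of a group were searched for a highest or lowest library whose gap to the nearest other exceeded 0.625 of the range. Of 307 groups searched 31 held such a library. The limit stands for about 1 in 20 only among independent groups of normally distributed values. The search used CPM without logs and the genes share libraries, so the count cannot be set against that rate. ZmPep3 library 2 stood above the rest of its group with 50.4 CPM for calmodulin, 37.9 CPM for CYP71Z18, 1520.3 CPM for PR-5, 466 CPM for PR-1, 353 CPM for aox3 and 92.1 CPM for CKX4b. Control library 2 stood above the rest of its group with 509 CPM for lox5, 225 CPM for lw1, 483 CPM for cc9, 54 CPM for RIP, 1151 CPM for MPI, 78.1 CPM for GST25, 25.8 CPM for SGR1, 0.243 CPM for LOC109944627, 5.54 CPM for LOC100284823 and 119 CPM for opr7. Control library 6 stood above the rest of its group with 205 CPM for MPK4, 1.16 CPM for ACS6, 43 CPM for TSA and 215 CPM for geb1. Other single high values after ZmPep3 were 31.3 CPM for aos3 (library 1), 383 CPM for bip2 (library 6), 29.8 CPM for RPS21 (library 4), 0.185 CPM for inra2(prp) (library 3), 0.209 CPM for Dwarf2 (library 6) and 10.8 CPM for asn2 (library 6). Other single high values in controls were 44.2 CPM for MPK5 (library 1), 6.25 CPM for CBL10 (library 1) and 2.05 CPM for asn2 (library 1). Other single low values after ZmPep3 were 5.45 CPM for WRKY111 (library 1) and 42.9 CPM for TSA (library 5).

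The test of the difference between leaves marked 20 values for the named genes, 10 for each younger leaf, on the log2 scale. The ZmPep3 effect in leaf 5 minus that in leaf 4 was 5.38 for tps10, 4.55 for inra2(prp), 3.33 for Dwarf2, 3.25 for CISZOG2 and 3.16 for geb1. It was negative, at -3.03 for asn2, -2.40 for bHLH30, -2.16 for EREB71, -2.08 for TPS9 and -2.01 for gst11. The effect in leaf 6 minus that in leaf 4 was 5.10 for WRKY96, 4.70 for Dwarf2, 4.47 for ZAR1, 4.02 for tps10 and 3.75 for inra2(prp), and negative at -5.09 for HB53, -4.86 for Yucca2, -4.33 for bHLH150, -3.77 for EREB71 and -3.65 for DBP4.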

How the results depend on the processing

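Across the 6 other settings and the leave-one-out fits, the counts of genes past the threshold stayed within 1.5 times of those reported. Leaving out each library in turn gave 9998 to 10863 genes for ZmPep3 against control, 4022 to 4537 of these at 2-fold or more, 6999 to 8087 for ZmPep3 against HAC, 1567 to 2102 for leaf 5 minus leaf 4 and 4263 to 4868 for leaf 6 minus leaf 4. Leaving out libraries of leaves 5 and 6 was added after the data were seen. The share of leaf 6 differences that were positive was 65.6% as reported, 56.3% with DESeq2 size factors, 56.4% with the DESeq2 Wald test, 51.9% with a filter of 1 CPM, 55.1% without leaf 4 control 2 and 74.4% when only the 4 groups were fitted, and the cause was not tested. Between ZmPep3 and HAC 48.7% of calls were higher, against 57.8% when only these groups were fitted and 40.8% with no filter. Between ZmPep3 and control 48% were higher, against 51.8% when only these groups were fitted and 41.2% with no filter. Whether replicate numbers pair the samples was not tested. Same-numbered ZmPep3 and control libraries of leaf 4 correlated weakly, at -0.0765 to 0.108, and 3 of 6 matched their own number best. Over all 396 same-numbered pairs from different groups the median correlation was 0.00925, and 23 pairs exceeded 0.1. With the replicate block 10846 genes were called for ZmPep3 against control, 4273 at 2-fold or more, 7984 against HAC, 1887 for leaf 5 and 4855 for leaf 6. Of 2763 recomputed log2 fold changes of 154 genes against control, 2740 kept direction and side of the threshold, 19 lost and 4 gained a call, and 0 of the called ones turned sign. Depth limits the 4747 genes under 1 CPM in both groups, where 883 of the 10788 calls lie.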
